A study of Talinum fruticosum with 24 samples.

Results

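The comparison described here is the step from the afternoon into the night in mock-sprayed leaves of Talinum triangulare, the waterleaf, which the labels list as Talinum fruticosum. Its members are the 4 libraries labelled mock at 320 min and mock at 640 min, 2 of each, chosen by label from the 24 libraries of the series. The first pair was harvested 9.3 h into a 12 h light period and the second 2.7 h into the following dark period. The other 20 libraries cover mock leaves at the remaining harvests and leaves sprayed with 200 µM abscisic acid (ABA), a hormone that plants make when short of water.

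All plants were 2 months old, were kept at 25 °C by day and 23 °C by night, and were watered as needed so that drought did not induce crassulacean acid metabolism (CAM). The mock solution held methanol and 0.02% Tween-20, and ABA leaves received 200 µM ABA with the same detergent. Leaves were sprayed 4 h into the light period and again 4 h later. The afternoon harvest therefore came 80 min after the second spray and the night harvest 400 min after it. Light, temperature, clock time and time since the spray changed together between the harvests and cannot be told apart. No unsprayed leaves were analysed here. Each library came from 1 plant, with its treated leaves pooled, and different plants were used at each harvest.

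Transcript levels in leaves follow a daily cycle that is set by light and by the circadian clock. Photosynthesis stops at dusk, and the leaf then draws on the starch it stored by day. In species that can use CAM, carbon dioxide can instead be fixed at night and held as malic acid until morning. No gene names come with the identifiers in the files used here, so neither these pathways nor the identity of the tissue could be checked against named genes. Features are described by their behaviour, and few identifiers are given.

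The afternoon libraries held 23101642 and 22198710 counts, and the night libraries held 19672660 and 20730996. Counts were listed for 18818 and 18686 features in the afternoon and for 18921 and 19030 at night. Within a harvest, log2 levels of the 2 libraries correlated at r = 0.9889 in the afternoon and r = 0.9877 at night across features, which do not vary independently. Between the harvests the 4 correlations ran from 0.9422 to 0.9492. Of the 20617 features with a count in any library, 17561 were tested.

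Going into the night, the leaves lost much of a small number of very abundant transcripts, and many others changed level. Levels are CPM, that is, counts scaled to a common library total, and they were put on a common scale in 2 ways. TMM scaling corrects for library composition and takes most features as unchanged, while library-size scaling gives each feature's share of all counts. The choice matters for this step: TMM factors averaged 1.05 in the afternoon and 1.42 at night, and over all features the median log2 fold change was 0.02 with TMM and 0.46 with library size. With TMM, 5809 features (33.1% of those tested) passed the threshold of 0.05 on the adjusted p of edgeR's quasi-likelihood test, 2811 higher at night (16% of those tested) and 2998 lower (17.1%). With library size, 7632 passed (43.5%), 6464 higher (36.8%) and 1168 lower (6.65%). With TMM 48.4% of the calls were increases, and with library size 84.7%.

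The calls that did not depend on the scaling were 2811 features higher and 1168 lower at night. These are all of the TMM increases and all of the library-size decreases, since the scalings differ by a near-constant shift. A further 1830 features were lower with TMM only and 3653 higher with library size only. No feature was called in opposite directions. The median log2 fold change of the 2811 higher features was 0.90 with TMM and 1.35 with library size. For the 1168 lower features it was -1.52 and -1.08. With both scalings the change was at least 2-fold for 1237 of the increases and 644 of the decreases. Changes of at least 8-fold were found in 63 and 74, with a floor of 3 counts over a group where it had none. In 23 of the 63 and 8 of the 74, the lower group held 1 to 3 counts in all.

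The number of calls was smaller whichever of the 4 libraries was left out, which leaves 1 library in a group. Without afternoon replicate 1 the TMM total was 3626 and without night replicate 2 it was 3663. The increases alone numbered 1620 and 1640 in these fits, and 1718 without afternoon replicate 2.

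**Figure D1:**
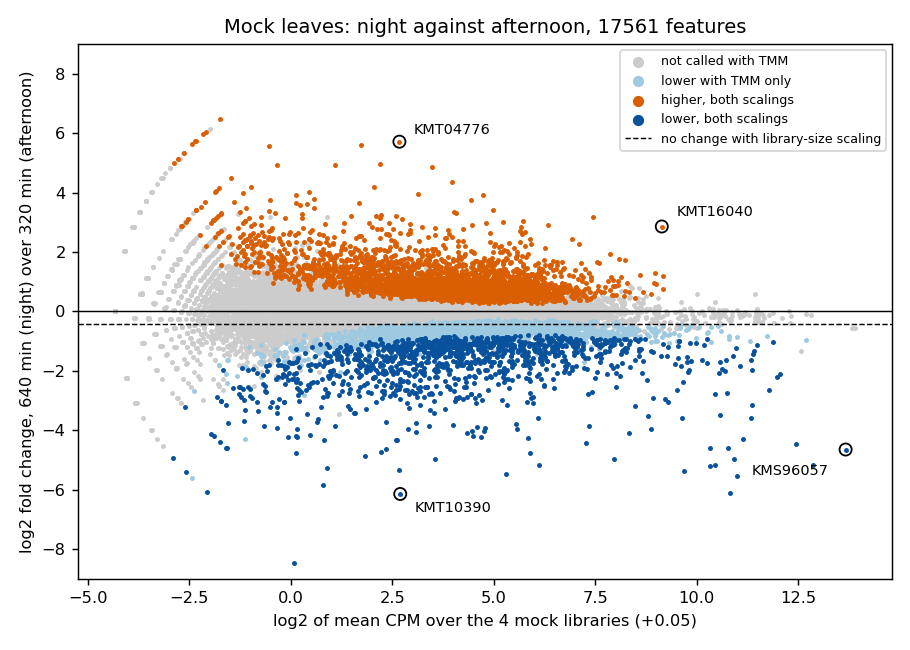
Log2 fold change from the afternoon (320 min) to the night (640 min) in mock leaves against mean level on a log2 axis, 1 point per feature, with TMM scaling. Orange and dark blue points were called with both scalings (2811 higher and 1168 lower), light blue points only with TMM, and the dashed line marks no change under library-size scaling. The right-hand side, with the most abundant features, holds more blue than orange points.

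Among the increases, KMT04776 had the highest fold change of those with a mean of at least 100 counts. It held 6 and 5 counts in the afternoon libraries and 362 and 350 at night, or 0.247 and 0.216 CPM against 13.35 and 11.54 CPM. The night libraries lay far above both afternoon libraries, and the log2 fold change was 5.71 ± 0.88 (SE, adjusted p = 0.000131 by edgeR), a 52.4-fold increase. With library size it was 6.15. In the other 8 mock libraries its level ran from 0.313 to 1.748 CPM, so it was high in the night libraries alone among mock leaves. In the next morning, at 1280 min, both libraries were back at 0.746 and 1.748 CPM.

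The increase with the largest gain in level was KMT16040. Its afternoon libraries held 130.5 and 143 CPM and its night libraries 934.8 and 1047 CPM, without overlap. The log2 fold change was 2.86 ± 0.24 (SE, adjusted p = 1.01e-07 by edgeR), a 7.24-fold increase. It had 68.9 to 123.5 CPM in the 6 mock libraries of 40 to 160 min, and 196 and 187 CPM the next morning. Both KMT04776 and KMT16040 had fallen again by then, by a log2 fold change of -3.30 ± 0.73 and of -2.37 ± 0.24 (SE, adjusted p = 0.000969 and 9.98e-08 by edgeR).

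The decreases included far more abundant features. KMS96057 was the most abundant feature of the afternoon libraries, with 618705 and 568193 counts, or 25440 and 24580 CPM. At night it held 28447 and 28672 counts, or 1049 and 945.7 CPM. It fell 25.1-fold, by a log2 fold change of -4.65 ± 0.35 (SE, adjusted p = 1.86e-08 by edgeR), and by -4.21 with library size. From 40 to 160 min its 6 mock libraries had held 22420 to 38460 CPM. The next morning it was at 9870 and 7633 CPM, above the night libraries and below all 8 daytime libraries of the day before.

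KMT10390 fell most by fold among features with a mean of at least 100 counts, from 357 and 247 counts to 3 and 7. This is 14.68 and 10.69 CPM against 0.1106 and 0.2309 CPM, a log2 fold change of -6.14 ± 0.59 (SE, adjusted p = 9.96e-07 by edgeR). It was already declining through the day, from 61.27 and 90.08 CPM at 40 min, and the next morning its libraries held 15.12 and 19.48 CPM. The fold rests on 10 counts at night and ran from -6.79 to -5.75 on the log2 scale when single libraries were left out.

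**Figure D2:**
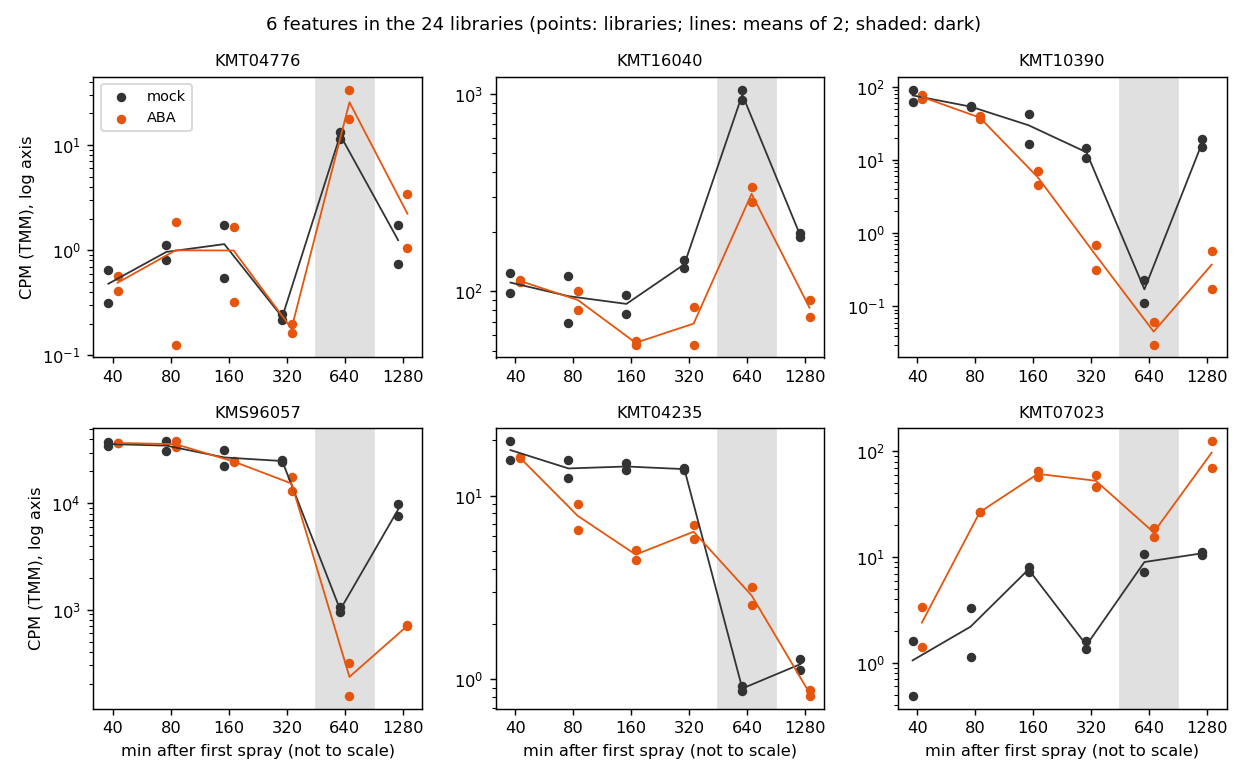
TMM-scaled CPM on log axes in all 24 libraries for the 6 features named in the text, with mock leaves in black and ABA leaves in orange. Points are libraries, lines join means of 2, and the shaded harvest was in the dark; in mock leaves KMT04776 and KMT16040 peak there, and KMS96057 and KMT10390 are lowest there.

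The percent of features called lower was highest in the most abundant class whichever scaling was used. Features were classed by mean CPM over the 24 libraries, most of them harvested in the light and including those compared. This classing favours decreases at night among abundant features, and how far it does was not tested. Among the 152 features over 1000 CPM, 65 were lower at night and 3 higher with TMM (42.8% and 2.0%). With library size the numbers were 50 and 8 (32.9% and 5.3%), against 6.65% lower among all features tested. In the class from 100 to 1000 CPM, 463 of 1193 were lower and 165 higher with TMM, and 215 and 393 with library size. Among the 7444 features from 10 to 100 CPM, 1540 were lower and 1589 higher with TMM, and 506 and 3565 with library size. Under 1 CPM, where few counts limit what can be called, 103 of 2449 were lower and 166 higher with TMM, and 66 and 364 with library size. The median log2 fold change of the class over 1000 CPM was -0.39 with TMM and 0.05 with library size, so the direction of the class median turned with the scaling while its excess of decreases did not.

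**Figure D3:**
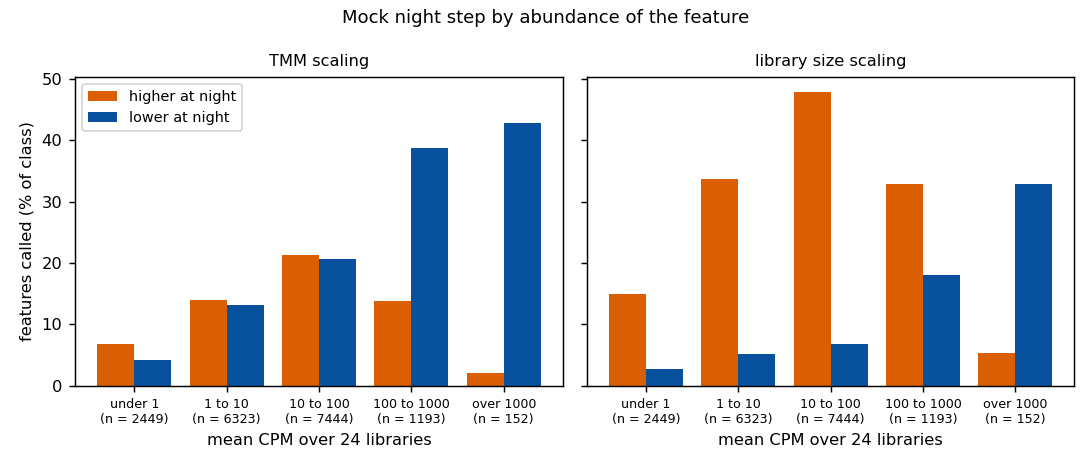
Percent of features called higher (orange) or lower (blue) at night in mock leaves, by class of mean CPM over the 24 libraries, with TMM scaling on the left and library-size scaling on the right. In the class over 1000 CPM decreases outnumber increases in both panels, 65 against 3 and 50 against 8.

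Counts were spread over more features at night. In the afternoon the most abundant 197 and 184 features made up 50% of the counts of the 2 libraries, and at night it took 434 and 527. In the other 8 mock libraries it took 86 to 225. The 100 features ranked highest by counts in the mock libraries of 40 and 80 min, libraries outside the comparison, held 37.97% and 38.78% of afternoon counts and 28.60% and 25.52% of night counts. Their share fell by 11.3 percentage points between the group means, 38.4% ± 0.573 and 27.1% ± 2.18 (SD, n = 2 each). Mean shares in mock leaves had been 50.2%, 46.7% and 41.1% at 40, 80 and 160 min, so the mean was lower at each later daytime harvest too, and it was 40.8% the next morning; these other steps were not tested. The choice of the set at 40 and 80 min favours high values there. The afternoon and night libraries did not overlap, but 2 against 2 libraries cannot give an exact two-sided permutation p below 0.333, the value found. Wilson 95% intervals of these shares lay within 0.02 percentage points of each value and cover counting error only, since the reads carry no molecular identifiers.

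The loss of share lay mostly in few features and the gain in many. Summed over all tested features that lost share, the loss came to 22.82% of a library's counts. The 3 features that lost most made up 21.9% of it, the top 30 made up 58.1% and the top 100 made up 78.8%. In share of counts, 13383 of the 17561 tested features gained and 4154 lost. Shares add up to a fixed total, so a loss in abundant features alone raises the shares of others. With TMM, 2811 features were called higher and 2998 lower. The top 100 gainers made up 25.4% of the gain in share. These rankings use the same 4 libraries and are a description.

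The 74 features that fell at least 8-fold held 9.94% and 9.39% of the counts in the afternoon and 0.55% and 0.54% at night. In mock leaves of 40, 80 and 160 min, which did not choose them, their mean share was 10.4%, 10.8% and 11.1%, and the next morning it was 4.64% ± 0.361 (SD, n = 2). Of the 74, 15 had a mean over 1000 CPM in the afternoon with TMM, and the highest night mean among them was 997 CPM, that of KMS96057. The 63 features that rose at least 8-fold were rare: together they held 0.01% of the counts in each afternoon library and 0.12% and 0.13% at night. In mock leaves of 40, 80 and 160 min their mean share was 0.04%, 0.05% and 0.02%, and the next morning it was 0.075%. The mean was thus lowest in the afternoon, which together with the night chose these features. Their median level was 0.127 CPM in the afternoon and 1.93 CPM at night.

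**Figure D4:**
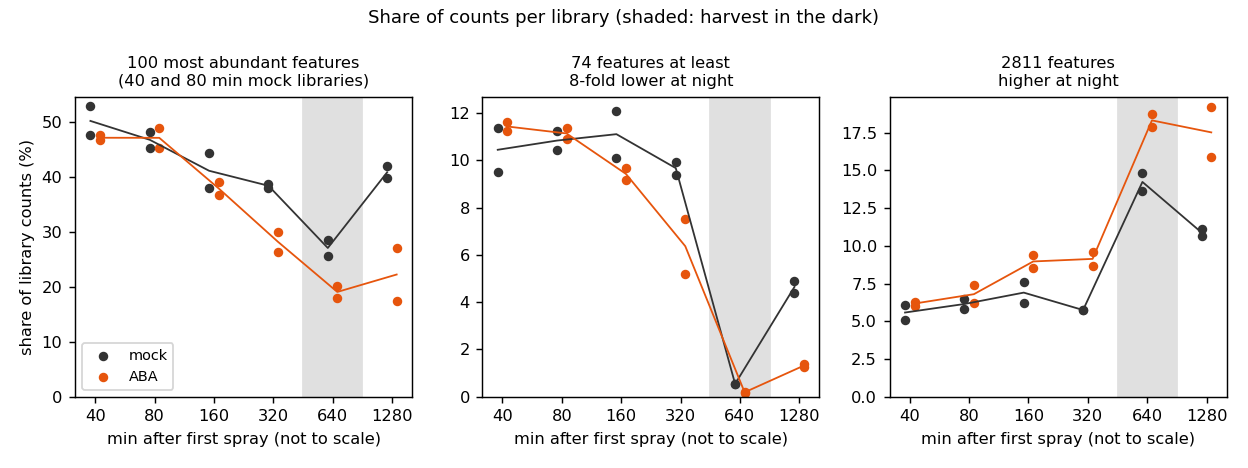
Share of library counts (%) held by 3 groups of features in each of the 24 libraries, with mock leaves in black, ABA leaves in orange and the dark harvest shaded. The share of the 74 features that fell at least 8-fold drops from above 9% to below 1% between 320 and 640 min in mock leaves.

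Between these harvests, few of the 20617 features with a count in any library switched fully on or off at this depth. With a minimum of 10 counts over a harvest, 21 features had counts at night and none in the afternoon, and 7 had counts in the afternoon and none at night. None of the 21 reached 30 counts over the night libraries together, and 1 of the 7 did over the afternoon libraries. The 13 and 4 of them that were tested all had counts in other mock libraries.

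The 5809 features that changed in the step into the night can be set beside the other mock steps. From 160 to 320 min, 5267 features (30% of those tested) changed in mock leaves with TMM, 15.4% higher and 14.6% lower. From 40 to 160 min 4732 did (26.9%), and 8502 with library size (48.4%), where 7737 were higher (44.1%) and the median over all features was 0.56. From the night to the next morning 10305 changed (58.7%), 27.6% higher and 31.1% lower. The first and the last of these comparisons share libraries with the night step, so values are set side by side only. Of the 2811 features higher at night, 864 had fallen and 231 had risen from 160 to 320 min with TMM. Of the 1168 lower at night, 393 had risen and 261 had fallen. Scaling changes the picture of the last step, where the median log2 fold change over all features was -0.07 with TMM and -0.99 with library size. By the next morning 36.5% of the 2811 fell and 27.3% rose with TMM, and 69.1% fell and 10.4% rose with library size. For the 1168 the balance turned: 48.1% rose and 26.6% fell with TMM, while 35.4% rose and 44.6% fell with library size. Among all features 11.7% rose and 60.8% fell in this step with library size.

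In mean level over the 6 mock harvests, 1341 of the 2811 higher features (47.7%) had their highest value at night and 1077 (38.3%) the next morning, against 19.9% and 29.8% of all features with TMM. Of the 1168 lower features, 649 (55.6%) were lowest at night and 452 (38.7%) the next morning, against 17.5% and 29.7% of all features. The highest value had been at 320 min for 504 of them (43.2%), against 19.6% of all features. The choice of these features by their 320 and 640 min levels fixes part of this pattern.

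Early morning was compared with late morning in mock libraries that have no part in the night step. The 40 min harvest came before the second spray and the 1280 min harvest 1040 min after it, on the next day. Time of day, day and spraying thus cannot be told apart in this comparison. At 1280 min, 1.3 h into the light, against 40 min, 4.7 h into the light, 24.2% of all features were higher and 23.8% lower. Of the 2811 features higher at night, 1409 (50.1%) were higher in early morning and 287 (10.2%) lower, with a median log2 fold change of 0.58 against 0.00 for all features. Of the 1168 lower at night, 613 (52.5%) were lower in early morning and 173 (14.8%) higher, with a median of -0.74. With library size the medians were 0.66 and -0.65, and 0.09 for all features. From 40 to 160 min, also without shared libraries, 16.7% of the 2811 rose and 17.2% fell, against 12.4% and 14.5% of all features, with TMM. With library size 49.6% rose and 5.7% fell, against 44.1% and 4.36% of all features.

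Leaves sprayed with ABA made the same step in other plants. Their TMM fit called 5507 features (31.4%), 2531 higher (14.4%) and 2976 lower (16.9%), and 1332 lower (7.58%) with library size. The TMM decreases numbered 1924 without ABA night replicate 1 and 1837 without ABA night replicate 2. Of the 2811 mock increases, 1605 also rose in ABA leaves, which is 57.1% of the mock list and 63.4% of the ABA list, and 19 fell. Of the 2998 mock decreases with TMM, 1947 also fell, which is 64.9% and 65.4%, and 14 rose. The mock and ABA steps share no library, although the fit estimates 1 spread per feature from all groups. Across the 17561 features the log2 fold changes of both steps correlated at r = 0.71, given as a description. The median log2 fold change of the 2811 was 0.90 in mock and 0.63 in ABA leaves, and that of the 1168 was -1.52 and -1.48. The mock libraries chose both sets, which favours larger mock values, and the medians were not tested against each other. Of the 74 features that fell at least 8-fold in mock leaves, 70 fell in ABA leaves, and of the 63 that rose, 39 rose; none of either group was called in the opposite direction.

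The step itself differed between ABA and mock leaves for 317 features (1.81% of those tested) by the interaction test with TMM. Of these, 88 (0.501%) moved more upwards and 229 (1.3%) more downwards with ABA, and 182 were called in the same direction with library size as well. In 103 the step was called in mock leaves only, in 75 in ABA leaves only, in 106 in both with the same direction and in 33 in opposite directions. Among those higher at night in mock leaves, 116 of 123 made a smaller or opposite step with ABA, with a median log2 fold change of 1.12 in mock and -0.04 in ABA leaves. Among those lower at night, 56 of 119 made a smaller or opposite step and 63 a larger one, with medians of -1.19 and -1.49. The mock libraries enter both the mock call and the interaction, so both of these splits are partly fixed by the choice. The total was 94 and 107 without mock afternoon replicate 1 or 2, and 110 and 111 without mock night replicate 1 or 2. It was 169 and 110 without ABA night replicate 1 or 2, 193 with library size (1.1%), 602 in a fit to the 8 libraries concerned and 714 with DESeq2.

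Among the 163 features called in the interaction with both scalings and averaging at least 100 counts, KMT07023 had the lowest interaction value. It held 1.604 and 1.341 CPM in the mock afternoon libraries and 7.19 and 10.79 CPM at night. In ABA leaves it held 45.79 and 59.74 CPM in the afternoon and 15.38 and 18.92 CPM at night. It thus rose in mock leaves, by a log2 fold change of 2.61 ± 0.45 (SE, adjusted p = 0.000349 by edgeR), and fell in ABA leaves, by -1.62 ± 0.36 (adjusted p = 0.0023). The interaction was -4.23 ± 0.58 (adjusted p = 0.00173). In mock leaves it was also at 8.044 and 7.258 CPM at 160 min, so the night was not its first high harvest.

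Among the same 163 features, KMT04235 had the highest interaction value. Its mock libraries held 13.74 and 14.11 CPM in the afternoon and 0.922 and 0.858 CPM at night, a log2 fold change of -3.96 ± 0.22 (SE, adjusted p = 7.43e-10 by edgeR). In ABA leaves it held 5.784 and 6.924 CPM in the afternoon and 2.543 and 3.173 CPM at night, a log2 fold change of -1.15 ± 0.19 (adjusted p = 0.000133). The interaction was 2.81 ± 0.29 (adjusted p = 0.000208). Its mock libraries stayed low the next morning, at 1.288 and 1.124 CPM, unlike those of KMS96057 and KMT10390.

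The 4 features named for the mock step did not pass the interaction test. KMS96057 held 17790 and 12930 CPM in the ABA afternoon libraries and 312.2 and 153.8 CPM at night, and the step there differed from the mock step by -1.39 ± 0.42 on the log2 scale (SE, adjusted p = 0.104 by edgeR). For KMT16040 the difference was -0.67 ± 0.32 (adjusted p = 0.363), with ABA levels of 53.52 and 83.4 CPM in the afternoon and 283.8 and 338.9 CPM at night. KMT04776 held 17.59 and 33.5 CPM in the ABA night libraries, against 0.1625 and 0.1978 CPM in the afternoon, and differed by 1.40 ± 1.54 (adjusted p = 0.768). KMT10390 held only 21 and 8 counts in the ABA afternoon libraries and 2 and 1 at night (interaction adjusted p = 0.622). A p above the threshold does not show that the steps were alike.

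**Figure D5:**
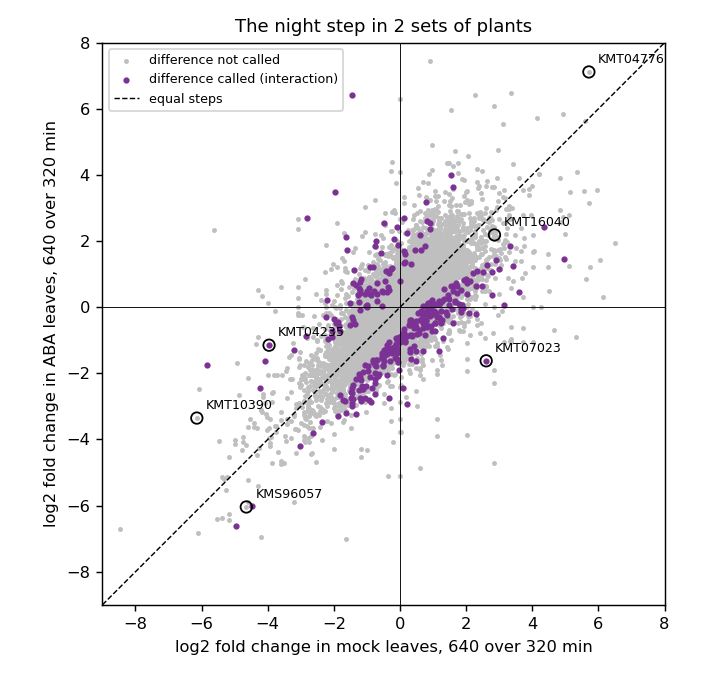
Log2 fold change from 320 to 640 min in ABA leaves against that in mock leaves, 1 point per feature, with the 317 features of the interaction test in purple and the 6 named features ringed. Points scatter along the dashed line of equal steps (r = 0.71), and KMT07023 lies at a positive mock and a negative ABA value.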

How the data were processed

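Each library came as 1 list of features with whole-number read counts, deposited by the authors without normalisation; a feature not listed was given 0 counts. Per the labels' protocols, a stranded kit for polyadenylated RNA was used, and single reads of 150 bp were sequenced, 12 samples to a lane. Not given in the sources used here are the lane of each sample, the reference, the aligner, the counting tool and its strand setting. Reads of near-identical or overlapping features could thus have been divided among them. CASAVA, Trimmomatic and DESeq2 appear in the submitters' processing notes, with no roles or versions.

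The analysis used edgeR 4.0.16 in R 4.3.3. The expression filter (minimum count 10) removed 3056 features. A robust quasi-likelihood model with 12 group means was fitted to all 24 libraries (totals of 16577222 to 26846579 counts, TMM factors 0.66 to 1.70, 12 residual degrees of freedom), with two-sided F-tests and Benjamini-Hochberg adjustment over 17561 features. The SE restates the F-test, as the size of the log2 fold change over the square root of F. The common biological coefficient of variation was 15.7%. The fit was tested on simulated data. The second libraries of mock and ABA leaves at 320 min, whose files have the same number of bytes, listed 18686 and 18638 features, held the same count in 2.19% of features and were both kept.

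Named features passed with both scalings, averaged at least 100 counts in the libraries compared and, for the mock step, groups that did not overlap. Those with the highest and lowest log2 fold change and the largest gain and loss of CPM were taken, and for the interaction the highest and lowest value. Comparisons and rules were chosen with earlier results of these data known. Planned gene lists could not be used, as no identifier is paired with a name. DESeq2 1.42.0, other scalings, filters, sets of libraries and a replicate block were alternatives.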

Additional observations from a re-analysis of the deposited data

Results flagged for a closer look

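In 317 features the change from afternoon to night differed between ABA and mock leaves by the interaction test (edgeR, adjusted p under 0.05). Of these, the named ones are KMT07023, with an interaction of -4.23 on the log2 scale (adjusted p = 0.00173), and KMT04235, with 2.81 (adjusted p = 0.000208). KMT07023 rose in both mock night libraries and fell in both ABA night libraries, and KMT04235 fell in both treatments. Groups of 2 libraries are too small to test for a single outlying library.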

How the results depend on the processing

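For the mock step, the total of 5809 was 3732 at a threshold of 0.01 and 3626 to 4268 with single libraries left out. The increases (2811) were 6464 with library size, 1718 at 0.01 and 1620 to 2084 with single libraries left out, and the decreases (2998) were 1168 with library size. A fit to only the 4 libraries compared called 8246 features with TMM, 4061 higher and 4185 lower, and 7826 with a replicate block. Fits that leave out a library assume that the lone sample varies like the other groups. In 5720 features the step was called with a replicate block, 5653 of them shared with the main calls, and the block ended or added no call of a named feature. Replicate numbers are not stated to pair the plants. Deviations of same-numbered libraries correlated at -0.03 between the mock harvests. Over 66 pairs of groups the correlations ran from -0.29 to 0.31, and 5 exceeded 0.1. These values cannot show that no block existed. For ABA leaves, the total of 5507 was 3599 at 0.01. The increases were 5516 with library size and 1628 at 0.01, and the decreases 1332 with library size, 1971 at 0.01 and 1837 to 2410 with single libraries left out. For the interaction, the total of 317 was 87 at 0.01, 193 with library size, 602 with the 8 libraries, 714 with DESeq2 and 94 to 282 with single libraries left out. Upward differences (88) were 23, 49, 204, 232 and 27 to 105 in that order, and downward ones (229) were 64, 144, 398, 482 and 61 to 177. The median log2 fold change of the classes of 100 to 1000 CPM and over 1000 CPM turned from -0.23 and -0.39 to 0.22 and 0.05 with library size. The change in the share of abundant features was -12.9 to -9.78 points with single libraries left out, and -10.4 and -12.7 for the top 50 and 500. Night-only features (21) were 180 at 3 counts and 0 at 30, and afternoon-only features (7) were 63 and 1. The 6 named features kept direction and call in every alternative that gave them a value, and KMS96057 was absent where the most abundant features were left out. The choice of these 6 as extremes called with both scalings fixed the outcome for library size and favours it elsewhere. Under 1 CPM few changes could be called at this depth.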

Other observations

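The 2811 features that were higher at night in mock leaves were also followed in ABA leaves, as shares of counts without a test. Their share was 5.75% ± 0.0141 in mock leaves at 320 min and 9.14% ± 0.636 in ABA leaves (SD, n = 2 each), then 14.2% ± 0.849 and 18.3% ± 0.608 at night, and 10.9% ± 0.346 and 17.5% ± 2.35 the next morning. At 40 min it was 5.58% ± 0.672 and 6.18% ± 0.184. The mock values of 320 and 640 min chose these features. The 100 features most abundant in mock leaves at 40 and 80 min were followed too. They held 28.2% ± 2.55 of counts in ABA leaves at 320 min and 19.1% ± 1.65 at night. These lay below the mock values of 38.4% and 27.1%, but mock libraries chose the set, which favours higher mock shares. At night 828 and 711 features made up 50% of the counts of the ABA libraries, against 434 and 527 in mock leaves.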
